A study of Rattus norvegicus and Mus musculus with 24 samples.

Results

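The genes of renal ammonia production, gluconeogenesis and bicarbonate reabsorption were followed in kidney RNA-seq libraries of Ctns knockout (KO) and wild-type (WT) mice and rats. The members were fixed by name as PCK1, GLUD1, SLC38A3, SLC9A3, SLC4A4, FBP1, PC and GOT1, and every row whose symbol equalled one of these names was taken. They were chosen with earlier results of these data known, so their counts and medians beside all symbols are description. Of these 8 genes, 7 were analysed in both species, among 17376 symbols of the mouse table and 14931 of the rat table, and GLUD1 was not analysed here. The files write symbols in the human style for both species, and this spelling is kept.

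Ctns encodes cystinosin, the transporter that releases cystine from lysosomes, and its loss is the cause of cystinosis. The mice comprised 4 KO and 4 WT animals on the C57BL/6 background, and the rats 8 KO and 8 WT animals on the Sprague-Dawley background, with littermates as controls per the study's methods. The rat animal numbers fall into the ranges 17 to 24 and 25 to 32, each holding 4 KO and 4 WT rats. The labels do not say what the ranges stand for. The age and treatment of each sequenced animal and the sex of each sequenced rat are not given in the sources used here. The methods name mice of several ages, and male and female rats for an experiment with rapamycin or placebo pellets. They do not say which of these animals were sequenced. The study's reporting text states that the mice were female. The methods name kidney cortex, whereas the labels also name proximal tubule cells and microdissected tubules. Distal nephron markers such as UMOD, the main protein of normal urine made in the thick ascending limb, were abundant in both species, with a mean of 5009 CPM (counts scaled to a common library total) in mice and 2557 CPM in rats. The libraries therefore held more than proximal tubule RNA. In such bulk RNA, fewer cells of a type and less RNA per cell cannot be told apart.

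Proximal tubule cells excrete acid by making ammonium and new bicarbonate from glutamine. The transporter SLC38A3 takes up glutamine from the blood side, glutamate dehydrogenase (GLUD1) and the aspartate aminotransferase GOT1 handle the glutamate made from it, and the carbon skeleton can leave as glucose. Phosphoenolpyruvate carboxykinase (PCK1), fructose-1,6-bisphosphatase (FBP1) and pyruvate carboxylase (PC) are enzymes of that gluconeogenic route, and the kidney is with the liver a main site of it. Filtered bicarbonate is recovered when the sodium-proton exchanger SLC9A3 (NHE3) secretes protons into the lumen and the sodium-bicarbonate cotransporter SLC4A4 (NBCe1) carries bicarbonate out across the basolateral membrane. Loss of bicarbonate in the urine is part of the renal Fanconi syndrome, the proximal tubule disorder of cystinosis.

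The promoters of the members with the largest rat differences are shown because transcription of PCK1 responds to cAMP through a well known element close to its start, and because HNF4A, a factor of proximal tubule and liver gene expression, is among the regulators described further on. RefSeq (GRCr8) held an entry for 6 of the 8 members, and the entries of SLC38A3 and PC are missing. Only the annotated start of each entry was used, and whether kidney transcripts begin there was not tested. The sequences are the 250 bases before the annotated start on the gene's strand, and capitals mark matches, on either strand, to TTACGTCA (the cAMP response element of PCK1), its palindromic form TGACGTCA, or CAAAGT (the core of an HNF4 motif). They lie at chr3:182348322-182348571 (plus strand, PCK1), chr14:19468283-19468532 (minus strand, SLC4A4) and chr17:2213457-2213706 (plus strand, FBP1). These are GRCr8 positions, whereas the submitters' processing notes name rn5 for the rat.

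PCK1: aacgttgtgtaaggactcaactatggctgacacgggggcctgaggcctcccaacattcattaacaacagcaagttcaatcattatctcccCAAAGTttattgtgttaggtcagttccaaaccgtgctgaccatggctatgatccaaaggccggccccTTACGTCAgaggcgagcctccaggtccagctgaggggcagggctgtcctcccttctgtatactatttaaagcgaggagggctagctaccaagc

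SLC4A4: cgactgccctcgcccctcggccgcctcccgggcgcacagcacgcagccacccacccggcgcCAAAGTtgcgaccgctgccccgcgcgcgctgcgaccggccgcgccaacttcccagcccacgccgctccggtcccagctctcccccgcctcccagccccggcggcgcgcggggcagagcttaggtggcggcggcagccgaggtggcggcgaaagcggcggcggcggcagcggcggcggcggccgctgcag

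FBP1: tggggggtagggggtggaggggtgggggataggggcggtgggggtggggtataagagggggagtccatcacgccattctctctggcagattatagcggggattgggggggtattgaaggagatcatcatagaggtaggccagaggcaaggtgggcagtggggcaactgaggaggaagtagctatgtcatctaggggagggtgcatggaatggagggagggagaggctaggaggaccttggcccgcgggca

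The PCK1 window held 1 TTACGTCA, 93 bases before the start, and 1 CAAAGT. TTACGTCA occurred in 0.75% of the 33469 rat promoter windows of this length, TGACGTCA in 1.59% and CAAAGT in 12.9%. SLC4A4 held 1 CAAAGT, and the windows of FBP1, SLC9A3, GOT1 and GLUD1 held none of these letters. The PCK1 window had 52% G and C, against 80.8% for SLC4A4 and 61.2% for FBP1.

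The targeted gene was examined first. In mice, CTNS had 0.824, 1.03, 0.878 and 0.944 scaled units in WT animals 1, 2, 4 and 7 and 0.342, 0.338, 0.319 and 0.331 in KO animals 3, 5, 6 and 8 (1 unit is the 75th percentile of the library). The groups did not overlap, and the KO mean was 36.2% of the WT mean. In rats, CTNS ranged from 19.2 to 27.8 CPM with a median of 21.99 in WT and from 16.8 to 22.2 CPM with a median of 18.8 in KO animals. The rat KO mean was 85.6% of WT, the groups overlapped, and the difference did not pass the threshold (log2 difference -0.22 ± 0.08 SE, edgeR adjusted p = 0.0511). Within the ranges the difference was -0.11 ± 0.08 SE in rats 17 to 24 and -0.32 ± 0.11 SE in rats 25 to 32 (edgeR adjusted p = 0.514 and 0.0391). Counts per gene do not show which part of CTNS was read, so this count does not check the rat labels. Read totals on genes were 19309371 to 44449845 in mice and 24684097 to 40629873 in rats, and mitochondrially encoded genes took 7.68 to 11.05% and 17.68 to 22.42% of them.

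The first question was which members differ between KO and WT mouse kidney. FBP1 alone passed the adjusted p threshold of 0.05 (limma), with lower values in KO mice, and the other 6 members did not. Over all 17376 symbols tested, 4.32% passed in either direction and 0.817% passed with lower values in KO. The median log2 difference of the members was -0.38, beside 2.508e-05 over all symbols. Mouse differences are on the log2(scaled value + 1) scale, which understates the change of low genes.

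Among the gluconeogenic enzymes, FBP1 (mm10 chr13:62864753-62888282) had 31.5, 30.4, 28.95 and 24.4 scaled units in WT mice 1, 2, 4 and 7 and 20.7, 21.7, 21.9 and 22.6 in KO mice 3, 5, 6 and 8. Every KO mouse lay below every WT mouse, as for 3.92% of all symbols. The KO mean was 75.5% of WT (log2 difference -0.38 ± 0.08 SE, limma adjusted p = 0.0482). Leaving out any 1 of 7 of the 8 mice moved the adjusted p to between 0.0816 and 0.126. Without WT mouse 7 it was 0.0200. With count models on the reads recovered from the scaled values, the FBP1 difference was -0.42 by edgeR (adjusted p = 0.00780). By DESeq2 it was -0.43 (adjusted p = 1.13e-05).

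PC (Pcx, chr19:4510472-4621752), the mitochondrial enzyme that makes oxaloacetate from pyruvate, had 20.5, 17.7, 21.4 and 15.1 units in the WT mice and 12.7, 14.8, 11.99 and 15.7 in the KO mice in the same order. Only KO mouse 8 reached above the lowest WT mouse. The difference of -0.41 ± 0.13 SE did not pass (limma adjusted p = 0.140). It passed with count models on the reads recovered from the scaled values, at -0.46 with an adjusted p of 0.0310 by edgeR and 0.00242 by DESeq2.

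PCK1 (chr2:173153048-173159273), the enzyme that makes phosphoenolpyruvate from oxaloacetate, had 173 and 155 units in WT mice 1 and 4 but 60.2 and 74.0 in WT mice 2 and 7. The KO mice had 55.7, 68.0, 61.8 and 83.5 units. WT mice 1 and 4 were thus well above all others and WT mice 2 and 7 lay within the KO range, with a difference of -0.64 ± 0.36 SE (limma adjusted p = 0.423).

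SLC38A3 (chr9:107650634-107669530), the glutamine carrier, separated the same WT mice. It had 3.71 and 4.33 units in WT mice 1 and 4, 0.717 and 1.42 in WT mice 2 and 7, and 0.959, 1.03, 0.933 and 1.49 in the KO mice. The highest WT value was 6.04 times the lowest, compared with 1.59 times among KO mice, and the difference of -0.61 ± 0.37 SE did not pass (limma adjusted p = 0.455). With edgeR on the recovered reads it was -1.23 ± 0.59 SE (adjusted p = 0.294).

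Of the bicarbonate transporters, SLC9A3 (chr13:74121457-74169442) had 1.82 to 2.24 units in WT and 1.78 to 1.97 in KO mice. SLC4A4 (chr5:88886818-89239653) had 27.1 and 29.7 units in WT mice 1 and 4, 43.5 and 35.4 in WT mice 2 and 7, and 28.3 to 37.3 in KO mice, so WT mice 1 and 4 were here below WT mice 2 and 7. Their differences were -0.07 ± 0.04 SE and -0.01 ± 0.16 SE (limma adjusted p = 0.453 and 0.983). GOT1 (chr19:43499752-43524605) had 3.07 to 3.81 units in WT and 3.20 to 3.31 in KO mice, a difference of -0.09 ± 0.05 SE (limma adjusted p = 0.467). The groups overlapped for all 3 genes.

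**Figure D1:**
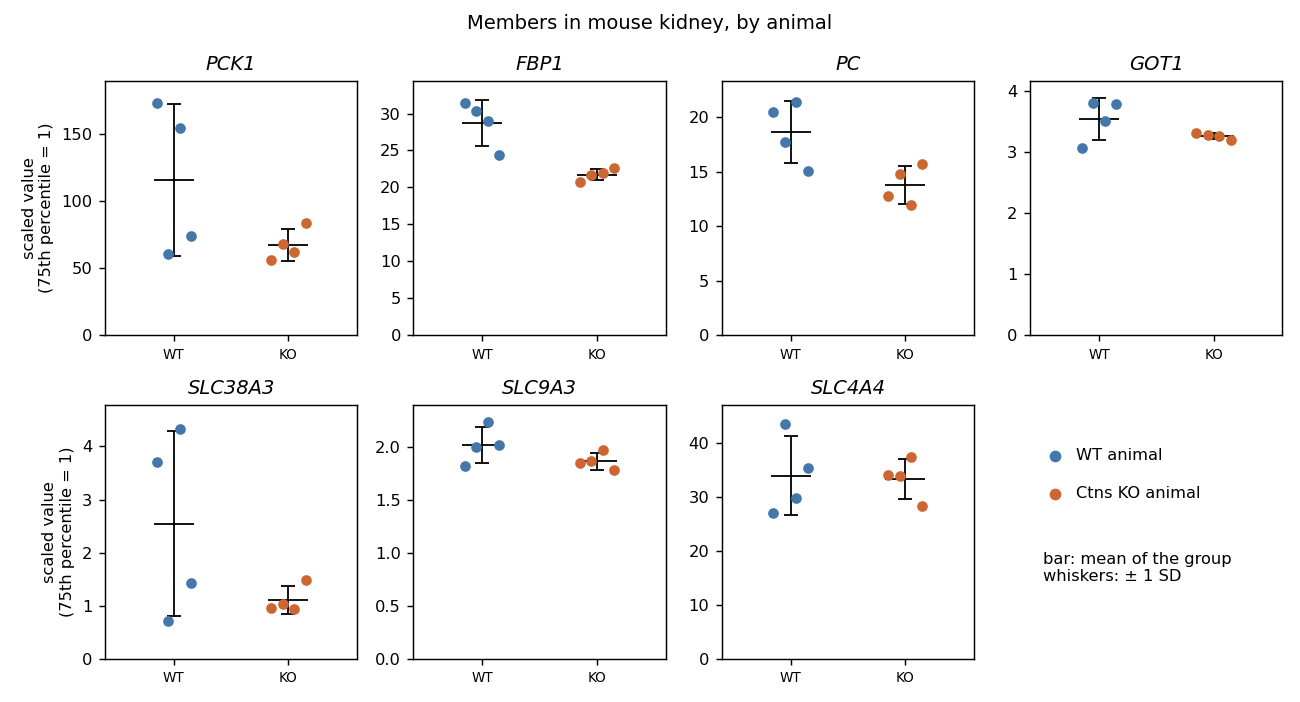
Scaled value of each analysed member (vertical axis, 1 is the 75th percentile of the library) in 4 WT and 4 KO mice; points are animals, horizontal bars group means and whiskers 1 SD. The KO points of FBP1 all lie below its WT points, and PCK1 and SLC38A3 have a pair of WT mice far above the other animals.

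Levels of different genes were compared only per length, using the joined exons of each gene in the mouse annotation. In WT mice PCK1 was highest with 33.7 ± 16.5 scaled units per kilobase (SD, n = 4), followed by FBP1 with 16.9 ± 1.83. PC with 3.93 ± 0.602 and SLC4A4 with 3.13 ± 0.673 came next, then GOT1 with 1.40 ± 0.136. SLC38A3 with 0.483 ± 0.331 and SLC9A3 with 0.367 ± 0.0313 were lowest. Within the pairs PCK1 and FBP1, PC and SLC4A4, and SLC38A3 and SLC9A3 the means differed by less than the sum of their SDs.

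The same question was asked in rats, first over all 8 KO and 8 WT animals. PCK1, SLC9A3, SLC4A4, FBP1 and PC were lower in KO rats past the threshold, and SLC38A3 and GOT1 did not pass. These 5 of 7 members stand beside 27.5% of the 11584 symbols tested that passed in either direction and 12.3% that passed with lower values in KO. The members' median log2 difference was -0.66, against -0.02 over all symbols tested. CPM were scaled by edgeR's TMM method.

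PCK1 ranged from 2057 to 8053 CPM with a median of 6005 in WT rats and from 2027 to 3743 CPM with a median of 2667 in KO rats. WT rat 17 was the only WT animal within the KO range. The KO mean was 48.5% of WT (log2 difference -1.05 ± 0.22 SE, edgeR adjusted p = 0.00187), the largest difference among the members.

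FBP1 ranged from 1206 to 1979 CPM with a median of 1649.6 in WT and from 802 to 1099.5 CPM with a median of 1003 in KO rats. PC ranged from 756 to 1179.7 CPM with a median of 904 in WT and from 497 to 695 CPM with a median of 613 in KO rats. For both enzymes every KO rat lay below every WT rat, as for 1.95% of the symbols tested. FBP1 differed by -0.67 ± 0.11 SE and PC by -0.66 ± 0.10 SE on the log2 scale (edgeR adjusted p = 0.000362 and 0.000127).

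The bicarbonate transporters differed as well. SLC9A3 ranged from 201 to 276 CPM with a median of 234 in WT and from 112 to 220.0 CPM with a median of 165 in KO rats, a log2 difference of -0.51 ± 0.14 SE (edgeR adjusted p = 0.0119). SLC4A4 ranged from 317 to 691 CPM with a median of 395 in WT and from 109 to 423 CPM with a median of 273 in KO rats. Its difference was -0.73 ± 0.23 SE (edgeR adjusted p = 0.0270), and leaving out 1 of WT rats 23 and 27 or KO rats 28 and 30 moved the adjusted p to between 0.0508 and 0.0620.

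The glutamine carrier SLC38A3 and the aminotransferase GOT1 did not pass. SLC38A3 ranged from 22.2 to 55.5 CPM with a median of 35.4 in WT and from 21.7 to 62.7 CPM with a median of 37.1 in KO rats (log2 difference 0.16 ± 0.23 SE, edgeR adjusted p = 0.649). GOT1 ranged from 215 to 265 CPM with a median of 257 in WT and from 199 to 259 CPM with a median of 233 in KO rats (-0.11 ± 0.07 SE, edgeR adjusted p = 0.244). The ranges overlapped for both genes, but for GOT1 3 KO rats lay below the lowest WT rat and 4 WT rats above the highest KO rat.

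The number ranges divided these results, so each was compared on its own. In rats 17 to 24, FBP1 and PC passed with lower values in KO, 2 of 7 members beside 7.26% of all symbols in either direction and 2.19% with lower values. In rats 25 to 32, 6 of 7 members were lower in KO past the threshold, beside 43.8% of all symbols in either direction and 22.1% with lower values. SLC38A3 was the member that did not pass there.

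SLC9A3 showed the clearest split. In rats 17 to 24 it had 208, 201, 240.2 and 254 CPM in WT animals and 197, 190.0, 220.0 and 211 CPM in KO animals, a difference of -0.14 ± 0.08 SE (edgeR adjusted p = 0.376). In rats 25 to 32 it had 213, 276, 256 and 227 CPM in WT and 139.6, 116, 133 and 112 CPM in KO animals. Every KO rat of the second range lay below every other rat, and the difference was -0.96 ± 0.10 SE (edgeR adjusted p = 5.39e-05). The share of all symbols separated in this way was not counted.

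FBP1 was at 77.2% of WT in KO rats 17 to 24 (-0.36 ± 0.07 SE, edgeR adjusted p = 0.0103) and at 52.5% in KO rats 25 to 32 (-0.93 ± 0.10 SE, adjusted p = 5.02e-05). The KO means were similar at 1012 ± 39.9 and 981 ± 134 CPM (SD, n = 4), whereas the WT means were 1311 ± 141 and 1870 ± 90.8 CPM. The larger FBP1 difference in the second range thus went with a higher WT level.

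PC was at 78.3% of WT in the first range (-0.34 ± 0.07 SE, edgeR adjusted p = 0.00691) and at 51.6% in the second (-0.95 ± 0.09 SE, adjusted p = 3.10e-05). Its WT means were 839 ± 65.99 and 1061 ± 115 CPM and its KO means 658 ± 26.98 and 548 ± 44.3 CPM. The groups did not overlap in either range for FBP1 or PC, without a share over all symbols to set beside this.

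PCK1 had 2057, 5157, 4627 and 5826 CPM in WT rats 17, 19, 21 and 23 and 2320.5, 2374, 3139 and 2027 CPM in KO rats 18, 20, 22 and 24. WT rat 17 sat among the KO values, and the difference of -0.83 ± 0.32 SE did not pass (edgeR adjusted p = 0.198). Without rat 17 it was -1.07 with an adjusted p of 0.00220. In rats 25 to 32, WT animals had 6183, 6752, 8053 and 7776 CPM and KO animals 3625, 2959.7, 2315 and 3743 CPM, with no overlap and a difference of -1.19 ± 0.15 SE (edgeR adjusted p = 0.000143). How many of all symbols had no overlap in this range was not counted.

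SLC4A4 had 329, 387, 412 and 648 CPM in WT and 320.2, 291, 423 and 338 CPM in KO rats 17 to 24, which overlapped (-0.37 ± 0.23 SE, edgeR adjusted p = 0.432). In rats 25 to 32 it had 393, 691, 396 and 317 CPM in WT and 255, 168, 244 and 109 CPM in KO animals, with no overlap (-1.21 ± 0.29 SE, edgeR adjusted p = 0.00720). Here too the share of all symbols without overlap was not counted. GOT1 was at 105% of WT in KO rats 17 to 24 (0.08 ± 0.07 SE, edgeR adjusted p = 0.561) and at 81.7% in KO rats 25 to 32 (-0.29 ± 0.07 SE, adjusted p = 0.00484). SLC38A3 was at 103% and 117% of WT (edgeR adjusted p = 0.945 and 0.341).

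**Figure D2:**
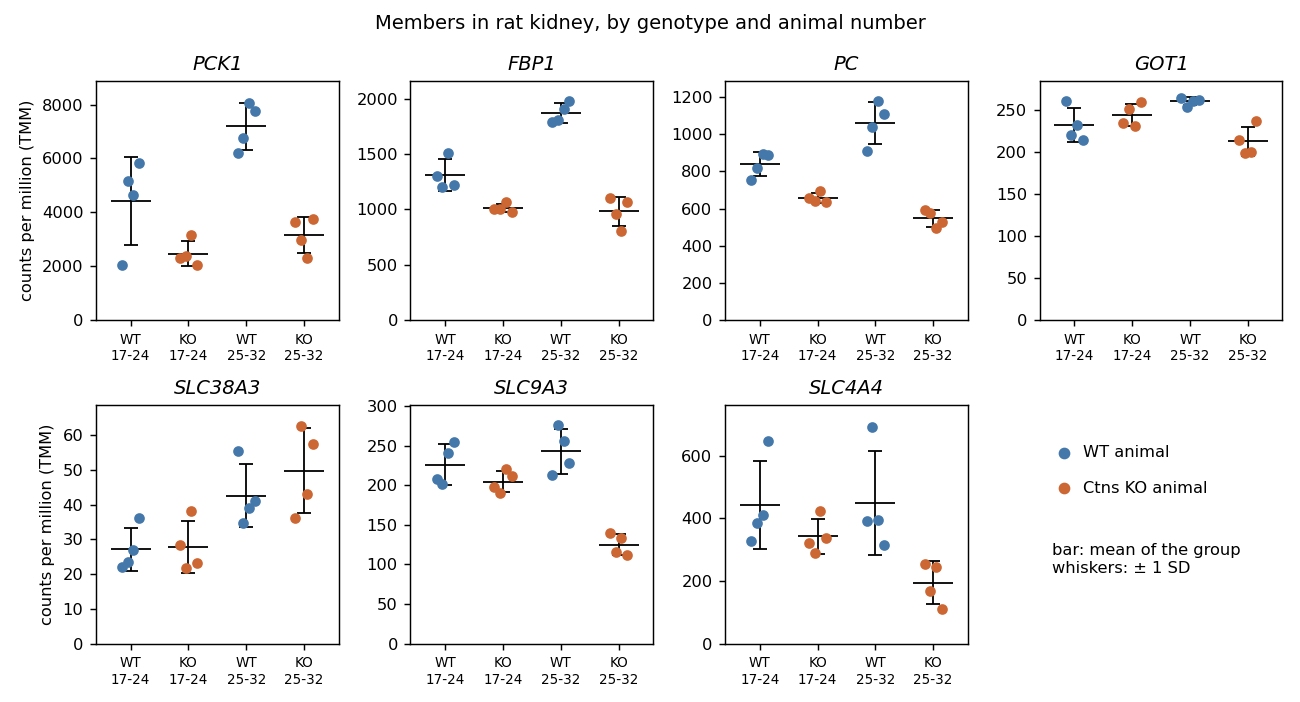
TMM-scaled CPM of each analysed member (vertical axis) in 4 groups of 4 rats, by genotype and animal number; points are animals, horizontal bars group means and whiskers 1 SD. In the 25 to 32 range the KO points of PCK1, FBP1, PC, GOT1, SLC9A3 and SLC4A4 lie below all WT points, and in the 17 to 24 range those of FBP1 and PC do. The share of all symbols separated in this way within a range was not counted.

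Whether the KO difference itself changed between the ranges was tested as an interaction over the 16 rats. It passed for SLC9A3, FBP1, PC and GOT1, 4 of 7 members beside 14.7% of 11839 symbols tested, in each case with a more negative KO difference in rats 25 to 32. The change was -0.82 ± 0.13 SE for SLC9A3, -0.56 ± 0.13 SE for FBP1, -0.61 ± 0.12 SE for PC and -0.37 ± 0.10 SE for GOT1 (edgeR adjusted p = 0.00129, 0.00958, 0.00329 and 0.0179). For PCK1 it was -0.35 ± 0.34 SE, for SLC4A4 -0.84 ± 0.40 SE and for SLC38A3 0.19 ± 0.30 SE, none past the threshold (edgeR adjusted p = 0.508, 0.162 and 0.697).

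Among WT rats alone, 4 members were higher in animals 25 to 32 than in 17 to 24, beside 21.1% of symbols that passed in either direction. These were PCK1 (0.70 ± 0.24 SE, edgeR adjusted p = 0.0496), SLC38A3 (0.65 ± 0.21 SE, adjusted p = 0.0398), FBP1 (0.51 ± 0.09 SE, adjusted p = 0.000676) and PC (0.34 ± 0.08 SE, adjusted p = 0.00689). SLC9A3, SLC4A4 and GOT1 did not pass. The PCK1 call was lost when any 1 of 7 of the 8 WT rats was left out, and without rat 17 its difference was 0.47. The SLC38A3 call was lost without any 1 of rats 17, 19, 21, 25, 29 or 31. Markers of other cells moved with the range in WT rats: 7 of 8 distal nephron markers were lower and 1 higher in 25 to 32, 5 of 7 podocyte and endothelial markers were lower, and 4 of 5 lymphocyte, 4 of 10 macrophage and 3 of 7 tubular injury markers were higher. Of 12 proximal tubule markers, 6 were higher and 3 lower. The distal nephron sum was 4405 to 5207 CPM in WT rats 17 to 24 and 3495 to 4202 CPM in 25 to 32, without overlap. The part of these markers in the WT difference was not tested.

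The rat and mouse differences were also set against each other in 1 fit on log2 values. By limma 0 of 7 members passed, 1 of them with an unadjusted p under 0.05, and by edgeR on the reads of both species 0 of 7, beside 3.17% of the 11216 symbols tested by limma. For SLC38A3 the rat difference was higher than the mouse difference by 0.69 ± 0.29 SE (limma adjusted p = 0.207), and without WT mouse 2 this became 0.99 with an adjusted p of 0.0202. No other member passed when 1 animal was left out, and in the other 23 such fits 0 of 7 passed. For SLC4A4 and SLC9A3 the rat difference was lower by 0.63 ± 0.32 SE and 0.33 ± 0.16 SE (limma adjusted p = 0.287 and 0.273).

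**Figure D3:**
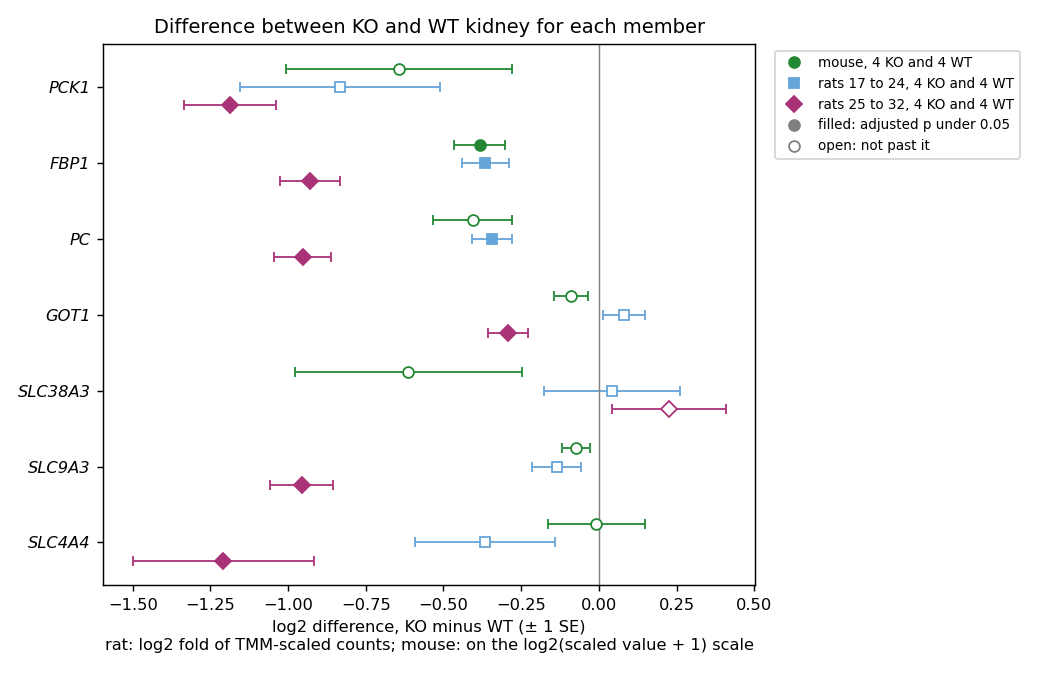
KO minus WT log2 difference (horizontal axis, ± 1 SE) of each member in mice, rats 17 to 24 and rats 25 to 32; filled symbols passed the adjusted p threshold of 0.05. Mouse values are on the log2(scaled value + 1) scale. FBP1 passed in all 3 comparisons, and SLC9A3 moved from -0.14 in rats 17 to 24 to -0.96 in rats 25 to 32.

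The summed level of the proximal tubule markers was lower in KO rats, but the markers did not all move alike. The rat sum held 12 of the 14 listed markers, without LRP2 (megalin) and SLC5A12, whereas the mouse sum held all 14. The rat sum was 14106 to 21012 CPM in WT and 10290.2 to 12892 CPM in KO rats, and none of the 12 was at 0. By range, WT rats had 14106 to 16252 CPM in 17 to 24 and 18895 to 21012 CPM in 25 to 32, and KO rats had 12193 to 12892 and 10290.2 to 12348 CPM. Of the 12, 5 fell (SLC34A1, SLC22A6, SLC22A8, SLC13A3, AQP1) and 1 rose (CYP7B1), with a median log2 difference of -0.35. The remaining 6 did not pass and ran from -0.38 for GATM to 0.36 for SLC2A2. Over all symbols tested 27.5% passed in either direction and 12.3% with lower values in KO. In mice the sum was 321 to 439 scaled units in WT and 310.3 to 334 in KO animals, and 1 of 14 markers, SLC7A13 at a mean of 0.448 CPM, passed with a lower value.

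Each member was therefore also expressed relative to this sum within the same rat, a step added after the data were seen. In 7 exact two-sided permutation tests over the 8 KO and 8 WT rats, unadjusted, FBP1 (-0.13, exact p = 0.00808) and PC (-0.13, exact p = 0.0273) were lower in KO, by a smaller log2 difference than in the counts. The genotype labels were permuted over all rats regardless of number range, so differences between the ranges enter these p-values. PCK1 had -0.46 (exact p = 0.0505), SLC4A4 -0.26 (exact p = 0.365) and SLC9A3 -0.03 (exact p = 0.858). By range these differences were -0.51 and -0.41 for PCK1, -0.09 and -0.43 for SLC4A4, and 0.11 and -0.16 for SLC9A3 in rats 17 to 24 and 25 to 32. GOT1 and SLC38A3 were higher relative to the sum, by 0.41 (exact p = 0.000622) and 0.64 (exact p = 0.0253), with 0.32 and 0.50 for GOT1 and 0.27 and 1.01 for SLC38A3 by range. The sum itself was lower in every KO rat, so a gene with equal counts in KO and WT rats comes out higher on this scale. These p-values therefore do not show a rise of GOT1 or SLC38A3, neither of which passed in the counts. SLC34A1, the sodium-phosphate cotransporter, made up 33.5% of the sum, so this scale follows that gene in part. The other markers that fell, SLC13A3, AQP1, SLC22A8 and SLC22A6, made up 11.4%, 9.56%, 9.15% and 7.68%. Whether the members fell with the number of proximal tubule cells was not tested.

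**Figure D4:**
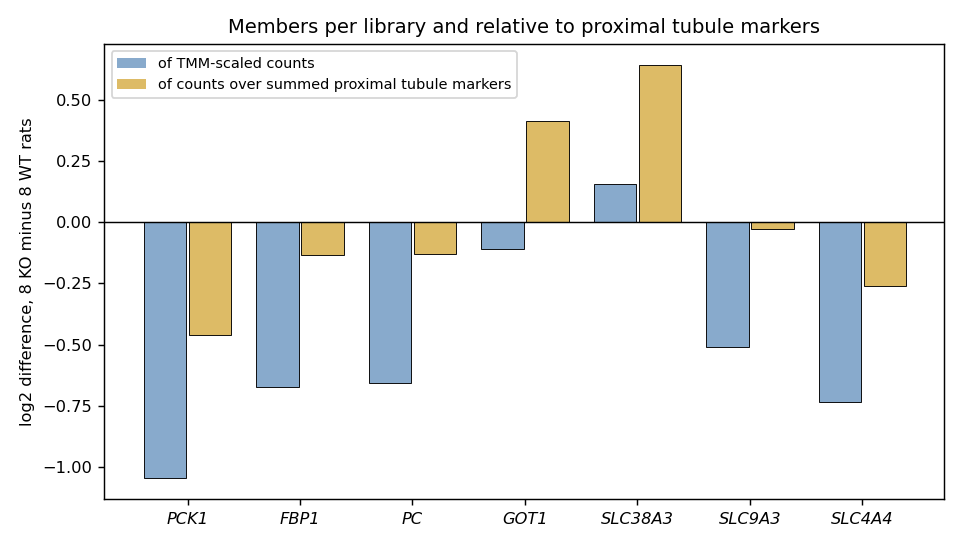
KO minus WT log2 difference over 8 KO and 8 WT rats (vertical axis) of each member, from TMM-scaled counts and from counts divided by the summed proximal tubule markers of the same rat. The second bar is nearer to 0 for PCK1, FBP1, PC, SLC9A3 and SLC4A4 and is above 0 for GOT1 and SLC38A3. The marker sum was lower in KO rats, so equal counts give a second bar above 0.

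Markers of injury and of other cells moved too. The counts below stand beside 27.5% of all symbols that passed in rats and 4.32% in mice. Tubular injury markers, among them HAVCR1 (KIM-1) and LCN2 (NGAL), summed to 279 to 447 CPM in WT rats, 1031 to 1644 CPM in KO rats 17 to 24 and 3782 to 5716 CPM in KO rats 25 to 32, and all 7 tested rose. In mice 6 of 8 rose and the sum was 28.5 to 42.9 scaled units in WT and 64.1 to 84.4 in KO animals. Macrophage markers rose for 8 of 10 in both species, fibroblast markers for 6 of 7 in rats and 4 of 8 in mice, and lymphocyte markers for 4 of 5 in rats and 0 of 7 in mice. Distal nephron markers rose for 3 of 8 in rats and 0 of 13 in mice, podocyte and endothelial markers passed for 0 of 7 in rats and 0 of 8 in mice, and adipocyte markers rose for 1 of 3 in rats and adrenal markers for 0 of 2. In mice 0 of 5 adipocyte and 0 of 2 adrenal markers passed, and 4 Y-linked symbols had no read in any mouse library. At an unadjusted p under 0.05, 1 podocyte or endothelial marker passed in each species, 1 distal nephron marker in mice, and 0 of the lymphocyte and adipocyte markers in mice and of the adrenal markers in either species. The part of these cells in the members' values was not tested.

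The other genes of the same pathways were taken from lists made by function, with earlier results of these data known. Here and in the following paragraphs, the rat counts stand beside 27.5% of all symbols that passed in either direction. With lower values in KO rats 12.3% passed, and in mice 4.32% passed in either direction. Of 9 further genes of glutamine and ammonia handling tested in rats, 4 were lower in KO and 5 did not pass, with a median of -0.18. The lower genes were SLC6A19, the luminal carrier of neutral amino acids (-0.66 ± 0.14 SE, edgeR adjusted p = 0.00229), glutamine synthetase GLUL (-0.43, adjusted p = 0.00358), the basolateral amino acid exchanger subunit SLC7A8 (-0.40, adjusted p = 0.00375) and DLST of the oxoglutarate dehydrogenase complex (-0.18, adjusted p = 0.0258). The ammonia channel RHCG of the collecting duct had 0.08 (adjusted p = 0.659). In mice 0 of 14 passed by limma, and 2 had an unadjusted p under 0.05.

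Of 10 further gluconeogenesis genes in rats, 7 were lower, 1 was higher and 2 did not pass, with a median of -0.29. The mitochondrial dicarboxylate carrier SLC25A10 (-0.45), the glucose-6-phosphate translocase SLC37A4 (-0.44), the mitochondrial pyruvate carrier subunit MPC1 (-0.33) and malate dehydrogenase MDH1 (-0.29) were lower (edgeR adjusted p = 0.000632, 0.00635, 0.00172 and 0.00161), together with SLC25A11 and MPC2. FBP2, the muscle isoform of fructose-1,6-bisphosphatase, was higher (0.71 ± 0.18 SE, edgeR adjusted p = 0.00729) at a low level of 3.33 to 6.45 CPM in WT and 4.47 to 9.98 CPM in KO rats. In mice 0 of 15 passed by limma and 5 had an unadjusted p under 0.05.

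Of 22 further genes of acid and bicarbonate transport in rats, 7 were lower and 15 did not pass, with a median of -0.11. Over all symbols tested 27.5% passed in either direction. The lower genes included the potassium channel subunit KCNJ15 (-0.82 ± 0.20 SE, edgeR adjusted p = 0.00612) and the membrane-bound carbonic anhydrase CA4 (-0.60 ± 0.13 SE, adjusted p = 0.00261). The apical scaffold PDZK1 (-0.48) and the cytoskeletal linker EZR (-0.23) of the brush border and the proton pump subunits ATP6V0A4 (-0.31), ATP6V1B2 (-0.25) and ATP6V1A (-0.22) were lower too. The sodium pump subunit ATP1B1 (0.04) and cytosolic carbonic anhydrase CA2 (0.00) did not pass (edgeR adjusted p = 0.642 and 0.998). In mice 1 of 21 passed, KCNJ15, with lower values in KO (-0.28 ± 0.06 SE, limma adjusted p = 0.0382). This count stands beside 4.32% of all mouse symbols.

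Among 14 regulators tested in rats, 6 were lower, 1 was higher and 7 did not pass, with a median of -0.27. HNF4A (-0.69 ± 0.13 SE, edgeR adjusted p = 0.00116), a transcription factor of proximal tubule identity, was lower, as was PPARA, a nuclear receptor of fatty acid oxidation (-1.01 ± 0.26 SE, adjusted p = 0.00790). The insulin receptor INSR (-0.49, adjusted p = 0.0457), the parathyroid hormone receptor PTH1R (-0.48, adjusted p = 4.98e-05) and FOXO1 (-0.45, adjusted p = 0.0258), a factor that insulin restrains, were also lower. Endothelin-1 (EDN1), which stimulates SLC9A3 in acidosis, was higher at 0.905 to 2.38 CPM in WT and 1.42 to 3.70 CPM in KO rats (0.68 ± 0.21 SE, edgeR adjusted p = 0.0214). PPARGC1A and CREB1, coactivator and factor of PCK1 transcription, had -0.24 and -0.06 (edgeR adjusted p = 0.347 and 0.822). In mice 1 of 17 passed, EDN1, with higher values in KO (0.02 on the log2(scaled value + 1) scale, limma adjusted p = 0.0488). This count too stands beside 4.32% of all mouse symbols.

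**Figure D5:**
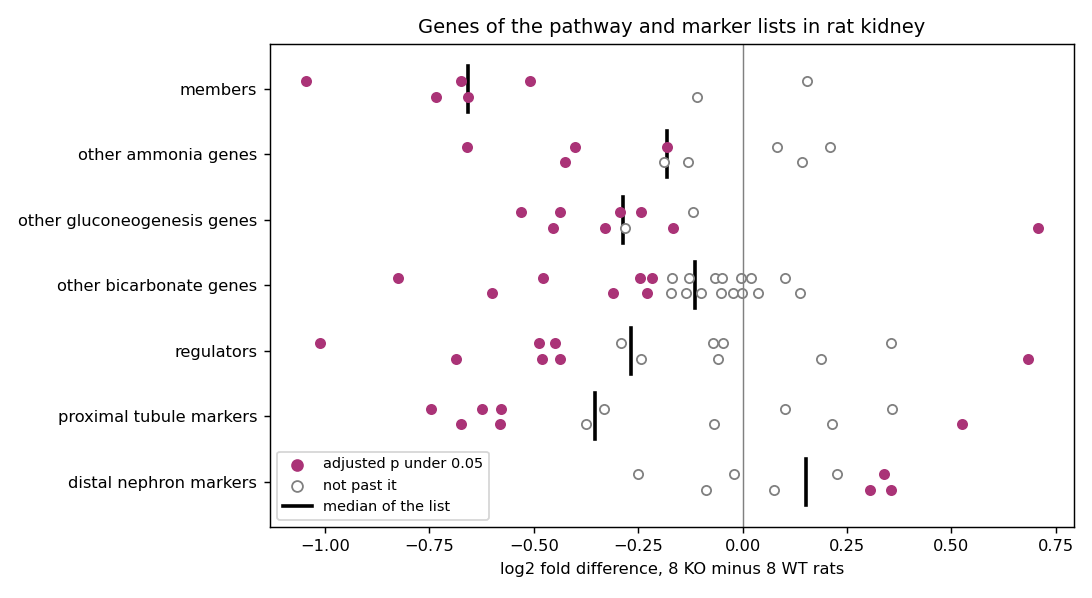
KO minus WT log2 difference over 8 KO and 8 WT rats (horizontal axis) of every tested gene of each list; filled points passed the adjusted p threshold of 0.05 and vertical bars are list medians. The members' median of -0.66 lies furthest to the left, and the distal nephron markers' median of 0.15 is the only one above 0 among the 7 lists drawn. Members and lists were chosen with earlier results of these data known, so this order is description and no test.

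Likeness to the members with the largest rat differences was measured as the mean absolute difference between log2 deviations over the 16 rats, among 8064 symbols with at least 10 CPM. The symbols nearest to PCK1 were PXMP4 (0.258), SLC6A13 (0.275) and DDX19A (0.287), against a median of 0.687 over all candidates. Nearest to SLC4A4 were TNS1 (0.141), KCNJ15 (0.159) and MARCHF6 (0.166), against a median of 0.548. Since these symbols were chosen for their likeness over the same KO and WT rats, their own KO differences in rats are not given as a result.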

How the data were processed

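RNA-seq libraries of 8 mouse and 16 rat kidney samples were prepared with a stranded mRNA kit. The submitters' processing notes name bcl2fastq 2.20, STAR 2.7.3, DESeq2 1.24.0 and R 3.6.1 and the builds mm10 and rn5, without their roles. For mice the authors deposited a scaled signal per symbol, which equals (reads + 0.5) over (75th percentile + 0.5), and 98.99% of the values came out as whole reads within 0.01. For rats they deposited estimated counts with a constant of 0.167 added, which was subtracted before rounding, and 97.72% came out whole.

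Mouse values were tested as log2(value + 1) with limma 3.58.1 without a filter, and rat counts with the quasi-likelihood test of edgeR 4.0.16 after filterByExpr and TMM scaling. The SE given with edgeR was derived from its test, as the absolute log2 difference over the square root of the F statistic. P-values were adjusted by Benjamini-Hochberg over all symbols tested, with a threshold of 0.05. The interaction and the WT range comparison came from 1 fit of the 4 rat groups, and the species comparison from limma on both tables at the same percentile scale. The scripts were tested on simulated data. The smallest chi-square per degree of freedom between replicates was 12.29 over 12 mouse and 8.60 over 56 rat pairs, so none was a repeated library.

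The members and lists were chosen with earlier results of these data known. Further genes were named by rule: from each pathway list and species up to 6 past the threshold with the largest difference and at least 1 CPM, and for likeness the 3 nearest symbols to each of 2 members. Other list genes are named to complete a count or as reference and were chosen after their values were seen. Alternatives were other pseudocounts, filters, scalings and tools (DESeq2 1.42.0), the range as covariate, and leaving out each animal. Some genes of the lists are counted but not reported here by name.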

Additional observations from a re-analysis of the deposited data

Results flagged for a closer look

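The KO difference depended on the animal number range, by the test of the difference itself, for 4 members. It was more negative in rats 25 to 32 than in rats 17 to 24 by -0.82 for SLC9A3, -0.56 for FBP1, -0.61 for PC and -0.37 for GOT1 on the log2 scale. The cause was not tested, and what goes with the number range in the animals cannot be told apart from it.

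CTNS differed between the species in the same sense of a tested difference. The rat KO difference was less negative than the mouse one by 0.47 on the log2(scaled value + 1) scale (limma adjusted p = 1.40e-07 over 24 animals), and its cause was not tested.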

How the results depend on the processing

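The 5 rat members that passed over all 16 rats, the 2 in rats 17 to 24, the 6 in rats 25 to 32 and the 4 with an interaction kept their counts with the size factors of DESeq2 and with DESeq2 itself, and where tried with limma-voom, no filter or the range as covariate. Scaling by library totals alone was not tested. When 1 rat was left out they were 4 to 5, 2 to 3, 6 and 4. In mice the count of members was 2, against 1, with edgeR and with DESeq2 on recovered reads, and 0 to 1 when 1 mouse was left out. Over all mouse symbols 751 passed, against 1198 with edgeR, 1520 with DESeq2 and 352 without WT mouse 4, where fewer animals entered. The count among WT rats was 2 to 4, and that between species 0 to 1, when 1 animal was left out. Over all symbols the interaction gave 1745 calls and 1010 to 2392 with 1 rat left out (lowest without KO rat 28), rats 17 to 24 gave 843 and 504 to 930 (lowest without KO rat 24), and the species comparison 355 and 181 to 478 (lowest without KO mouse 6). Relative to the summed proximal tubule markers, an alternative chosen after seeing the data, the GOT1 difference turned from -0.11 to 0.41, since the markers in the denominator were lower in KO rats, and 4 members had an exact p under 0.05, with 2 of them higher. No paired analysis was possible because KO and WT animals share no numbers in the labels. Ranges of animal numbers hold 4 animals per genotype, which limits the precision of each value. The model p-values set a difference between groups against the spread between animals, estimated with help of the other genes.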
